A study of Mus musculus with 6 samples.

Results

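Type I interferon receptor and STAT signalling was followed here through 9 genes, Ifnar1, Ifnar2, Jak1, Tyk2, Stat2, Irf9, Irf7, Irf3 and Usp18. They were chosen by symbol from 24054 genes in the deposited tables. The choice used no measured value, but earlier results of these data were known when it was made. All 9 were found and passed the filter on low counts together with 11391 other genes. The RNA came from macrophages that had been grown for 7 days from the marrow of C57BL/6 wild-type mice in L929-conditioned medium. The 3 oxLDL samples spent 24 hours with oxidised low-density lipoprotein (oxLDL) at 50 µg/ml, a particle that macrophages engulf through scavenger receptors, and the 3 untreated samples were kept without it. Samples of both groups carry the numbers 1, 2 and 3, and an oxLDL sample and the untreated sample of its number are called a pair. The labels do not say how many animals stand behind a number or what the word mix in every title means.

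Type I interferons bind a receptor made of IFNAR1 and IFNAR2, which hold the kinases TYK2 and JAK1. The kinases phosphorylate STAT2, which joins IRF9 in the factor ISGF3, and ISGF3 binds the interferon-stimulated response element in front of its target genes. IRF3 and IRF7 act upstream, where they switch on interferon genes after microbial sensing, and USP18 acts downstream, where it sits on IFNAR2 and dampens the receptor. Stat2, Irf9, Irf7 and Usp18 are themselves targets of interferon, whereas Irf3 and Jak1 are known as constitutively expressed genes. Macrophages keep a low tonic interferon signal in culture, which holds part of these targets at a basal level.

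Each sample held 13546572 to 15559310 expected counts (reads as RSEM estimates them), and levels are given as the deposited CPM scaled by TMM. Sample 3 of either group was less like samples 1 and 2 than these were like each other, with r of 0.917 and 0.930 in the oxLDL group and 0.902 and 0.909 in the untreated group, across genes on the log2(CPM + 1) scale. Samples 1 and 2 correlated at 0.987 in the oxLDL group and 0.988 in the untreated group. All 8 macrophage markers were measured, and their summed level was 8983 to 15957 CPM in oxLDL samples and 12725 to 35807 CPM in untreated samples. Lyz2 and Emr1 made up most of this sum, and the markers did not all go one way. Fcgr1, a receptor for IgG, fell, at 32.9 ± 15.3 CPM in oxLDL samples and 485 ± 104 CPM in untreated samples (SD, n = 3 each). The other 7 did not pass, and among the 8 only the lysosomal marker Cd68 had a positive log2 fold change. Cd68 averaged 1527 ± 165 CPM in oxLDL samples and 1008 ± 231 CPM in untreated samples. Itgam averaged 465 ± 147 CPM in oxLDL samples and 2131 ± 1040 CPM in untreated samples. Emr1 averaged 1437 ± 1036 CPM in oxLDL samples and 6283 ± 3098 CPM in untreated samples. The 4 markers of plasmacytoid dendritic cells, known for making type I interferon, summed to 0.266 to 0.671 CPM in oxLDL samples and 0.405 to 1.31 CPM in untreated samples, with Klk1 at 0 in all of them. The 7 neutrophil markers summed to 1.26 to 4.76 CPM in oxLDL samples and 6.96 to 30.7 CPM in untreated samples, and the part of these cells in the results below was not tested. The B cell list summed to 1.75 to 9.53 CPM in oxLDL samples and 3.45 to 38.3 CPM in untreated samples. The mast cell list summed to 23.3 to 36.6 CPM in oxLDL samples and 2.82 to 22.03 CPM in untreated samples. Most of these last sums came from Cd79b and Kit, while Cd79a, Cpa3 and Fcer1a were each below 0.3 CPM in every sample. In bulk RNA, fewer cells of a type and less RNA per cell cannot be told apart.

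The comparison asked how the transcripts of this pathway differed after a day with oxLDL. Stat2 and Usp18 fell, with untreated means that were 5.04 and 5.05 times the oxLDL means. Irf7 and Irf9 were lower in all 3 pairs but did not pass the test, and the receptor chains Ifnar1 and Ifnar2 were slightly lower in all 3 pairs and did not pass. Jak1 lay close to its untreated level in each pair, and Tyk2 and Irf3 differed in direction between pairs. None of these passed. The test was edgeR's quasi-likelihood test with the number as a block and Benjamini-Hochberg adjustment over all 11400 genes, and a gene passed with an adjusted p below 0.05. By this rule 2 of the 9 genes fell and 0 rose, against 5.89% of all genes tested past the threshold in either direction and 3.98% lower. The median log2 fold change was -0.45 over the 9 genes and 0.01 over all genes tested. The oxLDL samples lay below all untreated samples in 5 of the 9 (Ifnar1, Stat2, Irf9, Irf7 and Usp18), which was so for 10.2% of all genes tested. In 7 of the 9 the oxLDL sample was below its partner in every pair, as in 26.3% of all genes tested.

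The calls depended on the block and on the pairs. Without the block 0 genes of the whole table passed in edgeR, although 1674 had an unadjusted p under 0.05, and DESeq2 without the block called 872 genes (7.65% of those tested), with Stat2, Irf9 and Usp18 among them. With the block, DESeq2 called 5 of the 9 beside 16.3% of all genes, limma-voom 4 beside 8.12%, and limma on the deposited CPM 4 beside 7.35%. With pair 1 or pair 2 left out, 0 genes passed. With pair 3 left out 3446 genes passed (29.9% of those tested, 15.8% lower), and 6 of the 9 were among those that fell, namely Ifnar2, Tyk2, Stat2, Irf9, Irf7 and Usp18.

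**Figure D1:**
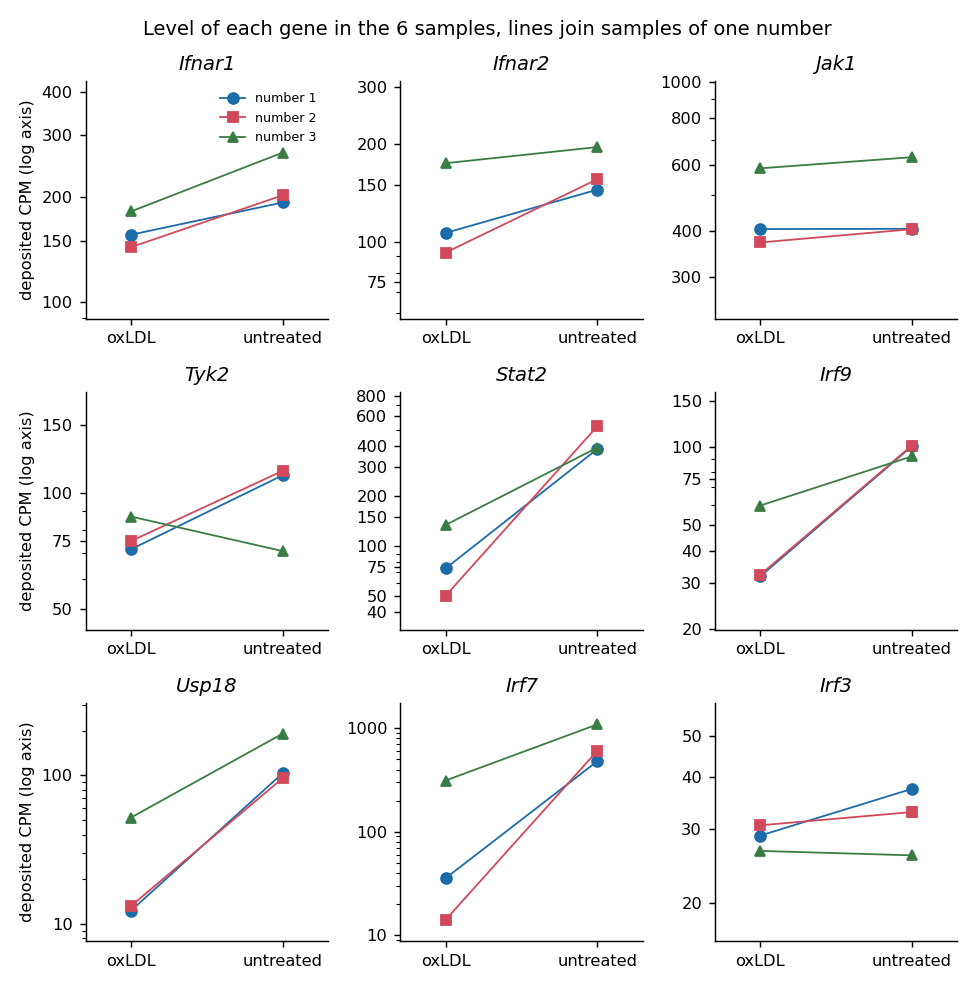
Deposited TMM-scaled CPM of each of the 9 genes in the 3 oxLDL and 3 untreated samples, on log axes that differ between panels, with lines joining samples of the same number. Stat2, Usp18, Irf7 and Irf9 slope up towards the untreated samples in all 3 pairs, while Jak1 is nearly flat and the Tyk2 line of number 3 runs the other way.

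The receptor chains came first in the order of signalling. Ifnar1, the chain that carries TYK2, measured 156, 144 and 182 CPM in oxLDL samples 1, 2 and 3, against 193, 202 and 268 CPM in untreated samples 1, 2 and 3. All 3 oxLDL samples were below the lowest untreated sample, and sample 3 was the highest of each group. With the block its log2 fold change was -0.45 ± 0.13 (SE), which did not pass (edgeR adjusted p = 0.0978), and without the block -0.46 ± 0.20 (edgeR adjusted p = 0.349). Ifnar1 passed with DESeq2 and the block (adjusted p = 0.0482). RSEM split reads between Ifnar1 and other genes in 6 of 6 samples, as its expected counts were fractional there.

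Ifnar2, the chain that carries JAK1 and that USP18 binds, measured 106, 92.5 and 175 CPM in oxLDL samples 1, 2 and 3, against 145, 156 and 196 CPM in the untreated samples. The groups overlapped because oxLDL sample 3 was above untreated samples 1 and 2, although each oxLDL sample was below its own partner. The log2 ratios of pairs 1, 2 and 3 were -0.44, -0.75 and -0.17, and the fold change of -0.45 ± 0.15 did not pass (edgeR adjusted p = 0.133). With pair 3 left out Ifnar2 fell, with an edgeR adjusted p of 0.0244 and a log2 fold change of -0.59.

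In the RefSeq annotation of GRCm38.p6, Ifnar2, Il10rb, Ifnar1 and Ifngr2 are consecutive protein-coding genes of chromosome 16. Il10rb, the shared chain of the interleukin-10 and type III interferon receptors, averaged 203 ± 42.5 CPM in oxLDL samples and 261 ± 35.3 CPM in untreated samples (SD, n = 3 each). Ifngr2, a chain of the interferon-gamma receptor, averaged 157 ± 33.8 CPM with oxLDL and 195 ± 31.7 CPM in untreated samples. Their log2 fold changes of -0.37 ± 0.13 and -0.33 ± 0.12 lay near those of both IFNAR chains, and none of the 4 genes of this cluster passed. Ifngr1, the other interferon-gamma chain, which lies elsewhere, did not pass either, at -0.55 ± 0.14 (edgeR adjusted p = 0.0814).

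The receptor kinases differed from each other across pairs. Jak1 measured 404, 372 and 588 CPM in oxLDL samples 1, 2 and 3, against 405, 404 and 630 CPM in the untreated samples. Sample 3 was the highest of each group, and within pairs the oxLDL sample kept 99.8%, 92.1% and 93.4% of the untreated level. The log2 fold change was -0.07 ± 0.14 (edgeR adjusted p = 0.761), and its sign changed to 0.03 when libraries were scaled by their totals alone.

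Tyk2 measured 71.5, 75.1 and 86.9 CPM in oxLDL samples 1, 2 and 3, against 111, 114 and 70.7 CPM in the untreated samples. The oxLDL samples of pairs 1 and 2 were lower than their partners, by log2 ratios of -0.64 and -0.61, and that of pair 3 was higher, by 0.30. The counting error of these ratios was 0.06 on the log2 scale in each pair, which covers the number of reads only. The fold change over the 3 pairs was -0.32 ± 0.22 and did not pass (edgeR adjusted p = 0.385). With pair 3 left out it was -0.61, with an edgeR adjusted p of 0.0132. Whether pair 3 differed from the others was not tested, because each pair holds 1 library per group.

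**Figure D2:**
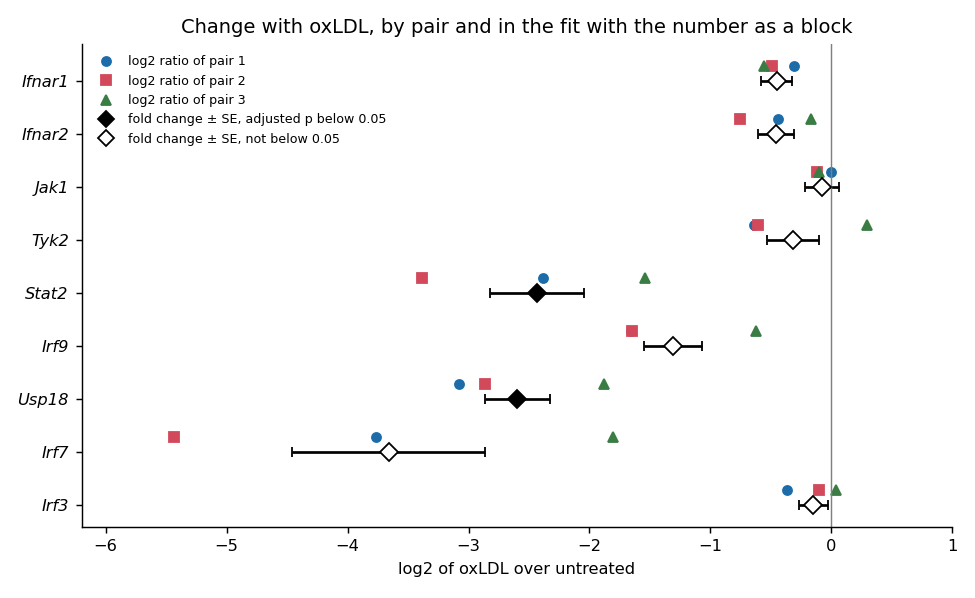
Log2 of oxLDL over untreated for the 9 genes: coloured points are the ratios of the 3 pairs and diamonds the fold change with the number as a block, with its SE. Black diamonds mark the 2 genes past the threshold, Stat2 and Usp18. The ratio of pair 3 is the nearest to 0 in every gene except Ifnar1 and Jak1.

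Stat2, the subunit of ISGF3 that brings the transactivation domain, measured 73.4, 50.2 and 134 CPM in oxLDL samples 1, 2 and 3, against 383, 525 and 390 CPM in the untreated samples. All oxLDL samples were far below the lowest untreated sample, and the oxLDL samples kept 19.2%, 9.57% and 34.3% of their partners. With the block the log2 fold change was -2.43 ± 0.39 (edgeR adjusted p = 0.0442), and without the block it was -2.34 ± 0.40 (edgeR adjusted p = 0.0952). In the order of fold changes from the lowest, 1.51% of all genes tested were at or below it.

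Irf9, the DNA-binding subunit of ISGF3, measured 31.9, 32.3 and 59.5 CPM in oxLDL samples 1, 2 and 3, against 100.4, 101 and 91.8 CPM in the untreated samples. The untreated samples lay close together, at 97.8 ± 5.15 CPM (SD, n = 3), and oxLDL sample 3 stood between them and the other oxLDL samples. Pairs 1 and 2 had nearly the same ratio, -1.66 and -1.64 on the log2 scale, and pair 3 had -0.63. The fold change of -1.31 ± 0.24 missed the threshold with the block (edgeR adjusted p = 0.0541; 0.146 without it). It passed with limma-voom (adjusted p = 0.0422) and with DESeq2 (adjusted p = 6.95e-05), both with the block. Only 4.96% of genes tested had a fold change at or below that of Irf9.

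ISGF3 recognises repeats of GAAA in the response element, and the 300 bases around the annotated start of each gene (250 before and 50 after) were searched for GAAANNGAA on both strands in RefSeq sequences of GRCm38.p6. Windows were found for 8 of the 9 genes, and that of Stat2 was the only one of them with a match, its first base 221 bases before the start. The window lies at chr10:128270248-128270547 on the plus strand, and capitals mark the match, read there on the other strand.
Stat2: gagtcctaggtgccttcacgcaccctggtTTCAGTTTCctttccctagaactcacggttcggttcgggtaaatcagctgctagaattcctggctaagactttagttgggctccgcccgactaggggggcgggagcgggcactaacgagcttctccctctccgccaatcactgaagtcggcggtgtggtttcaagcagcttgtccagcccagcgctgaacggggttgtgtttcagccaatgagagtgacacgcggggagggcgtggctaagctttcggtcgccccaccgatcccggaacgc

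The listed ISGF3 targets with a match, and Isg15, are shown beside Stat2 to compare their letters, each turned so that the match reads GAAANNGAA, in capitals with 10 bases on either side. Where a window held several matches, the one nearest the start is given. At the match nearest the start the letters were GAAACTGAA in 4 of these 9 genes, Stat2 and the antiviral genes Oas1a, Ifit1 and Bst2, and the window of Ifit3 held them farther from the start. The window of Jak3, a pathway gene that is not shown and did not pass, held the same letters. How often these letters occur among all matches was not counted.
Stat2 (chr10:128270267-128270295, minus strand): ctagggaaagGAAACTGAAaccagggtgc
Oas1a (chr5:120907521-120907549, minus strand): tcgggaaatgGAAACTGAAaatctacttc
Ifit1 (chr19:34640795-34640823, minus strand): tcagcagtgaGAAACTGAAactgagactg
Bst2 (chr8:71537578-71537606, minus strand): ccaggaaaatGAAACTGAAaggctgcagt
Ifit3 (chr19:34583417-34583445, minus strand): cagtgtttgtGAAAGGGAAgaggaaagta
Ifi44 (chr3:151749895-151749923, plus strand): caagcctgtaGAAAATGAAgagaaacttt
Isg15 (chr4:156200866-156200894, minus strand): aaaggaaaccGAAACAGAAaatagctctg
Oas3 (chr5:120777710-120777738, minus strand): aggagaaaacGAAAGTGAAgggaggtgac
Rsad2 (chr12:26456553-26456581, plus strand): tctgttttctGAAAATGAAagttggacca

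The match was held by 8.56% of all 32851 windows and, counted by gene, by 775 of 8694 tested genes with a window (8.91%). Of the genes that fell and had a window it was held by 71 of 332 (21.4%), of the listed ISGF3 targets by 7 of 14, and of the type I interferon genes by 10 of 14. The motif had been shortened after a first search, so these shares belong to a pattern that was not fixed beforehand. A match describes letters only, and no match says only that these letters are not in this window. The STAT motif TTCNNNGAA was held by 8.3% of windows, among them those of Ifnar1 and Ifnar2. Among the windows of the 9 genes shown, it overlapped a GAAANNGAA match in Bst2 alone, at a match other than the one printed.

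Usp18, which binds IFNAR2, lowers signalling from the receptor and removes the ubiquitin-like protein ISG15 from its targets, measured 12.3, 13.2 and 52.1 CPM in oxLDL samples 1, 2 and 3. The untreated samples had 104, 96.0 and 192 CPM. Sample 3 was the highest of each group, yet oxLDL sample 3 was still below the lowest untreated sample, and the pairs kept 11.8%, 13.8% and 27.2% of the untreated level. The log2 fold change was -2.60 ± 0.27 with the block (edgeR adjusted p = 0.0286) and -2.34 ± 0.67 without it (edgeR adjusted p = 0.202). The counts behind the oxLDL values were smaller than those of Stat2, Irf9 and Irf7 in each oxLDL sample, with 183, 199 and 715 expected counts in oxLDL samples 1, 2 and 3.

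Irf7 had the widest spread of the 9 genes. It measured 35.4, 14.0 and 313 CPM in oxLDL samples 1, 2 and 3, against 482, 608 and 1094 CPM in the untreated samples. Sample 3 was the highest of each group, and oxLDL sample 3 had 22.3 times the level of oxLDL sample 2. The groups did not overlap, and the oxLDL samples kept 7.35%, 2.30% and 28.6% of their partners. The log2 ratios of -3.77, -5.44 and -1.81 differed by far more than their counting errors of 0.07, 0.10 and 0.02. The fold change of -3.66 ± 0.80, lower than that of all but 0.544% of genes, did not pass with the block (edgeR adjusted p = 0.0698). Without the block it was -2.60 ± 1.18 (edgeR adjusted p = 0.378). Irf7 passed with limma-voom (adjusted p = 0.0384) and with DESeq2 (adjusted p = 0.000578), both with the block. The window around its start, at chr7:141266375-141266674 on the minus strand, is given because Irf7 had the lowest fold change of the 9 genes, and it holds no GAAANNGAA.
Irf7: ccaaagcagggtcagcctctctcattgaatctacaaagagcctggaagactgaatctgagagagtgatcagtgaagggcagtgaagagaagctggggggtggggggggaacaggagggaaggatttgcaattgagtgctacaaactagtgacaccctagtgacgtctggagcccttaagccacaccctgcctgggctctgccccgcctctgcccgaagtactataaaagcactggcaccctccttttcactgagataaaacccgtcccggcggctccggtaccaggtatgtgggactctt

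Irf3, the relative of Irf7 whose protein waits in the cytoplasm for activation, measured 28.9, 30.6 and 26.6 CPM in oxLDL samples 1, 2 and 3, against 37.4, 32.9 and 25.9 CPM in the untreated samples. The groups overlapped and the pairs disagreed in direction, with log2 ratios of -0.37, -0.11 and 0.04. The counting errors were 0.09, 0.10 and 0.11 in pairs 1, 2 and 3, so the ratio of pair 1 was well beyond its error, that of pair 2 about as large as it and that of pair 3 within it. The fold change of -0.15 ± 0.12 did not pass (edgeR adjusted p = 0.467).

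**Figure D3:**
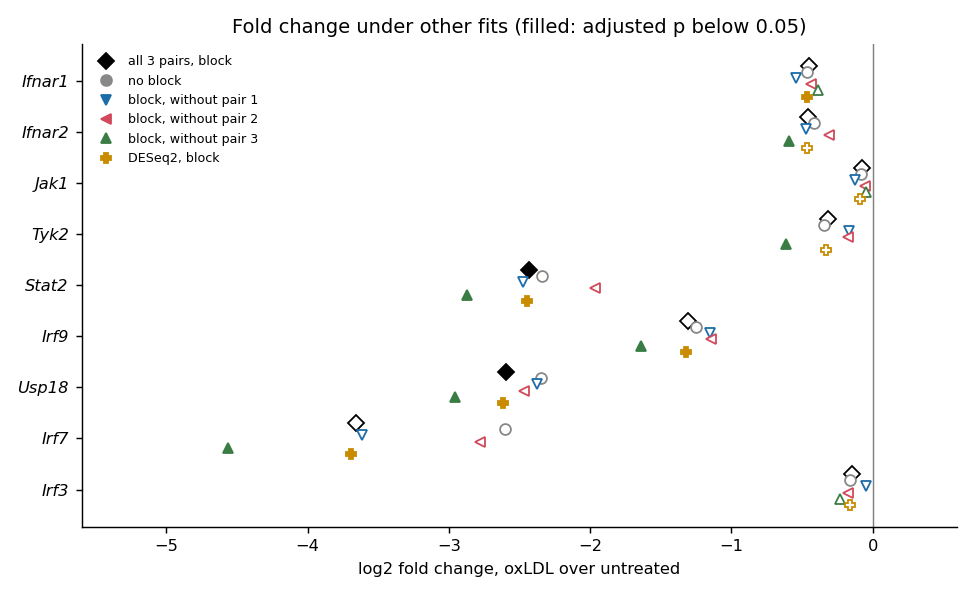
Log2 fold change of oxLDL over untreated for the 9 genes in 6 fits, filled where the adjusted p was below 0.05. Directions are shared by these fits, while the fits with pair 1 or pair 2 left out and the fit without the block have no filled point.

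Profiles were compared by the root mean square difference of centred log2(CPM + 1) over the 6 samples, with 8853 other genes of a mean of at least 3 on that scale. The nearest to Stat2 were Trex1 (0.15), a nuclease that removes cytosolic DNA, Oas3 (0.17), which makes the activator of RNase L, and Parp14 (0.23). Trex1 averaged 16.4 ± 8.66 CPM in oxLDL samples and 91.7 ± 13.4 CPM in untreated samples (SD, n = 3 each). The nearest to Irf7 were Ifit1 (0.24), which binds foreign RNA, the PYHIN gene Pydc3 (0.37) and the formyl peptide receptor Fpr2 (0.39). The nearest to Usp18 were Xaf1 (0.32), Phf11d (0.35) and Phf11b (0.36). Among the 9 genes themselves the closest profiles were those of Ifnar1 and Ifnar2 (0.18) and of Tyk2 and Irf3 (0.19), and the most distant were those of Irf7 and Irf3 (2.26). Stat2 and Usp18 differed by 0.53 and Stat2 and Irf7 by 1.16.

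Interferon genes themselves were nearly silent. Of 14 listed type I interferon genes, 13 had 0 counts in all 6 samples, and Ifnb1, the interferon that macrophages make first, had 0 counts in the oxLDL samples and 0, 1 and 4 counts in untreated samples 1, 2 and 3. None passed the filter, and at this depth no difference between the groups was detectable.

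Of 67 other tested genes on the pathway lists, 18 fell, 0 rose and 49 did not pass, beside the 3.98% of all genes that fell. With libraries scaled by their totals alone 16 fell and 1 rose. The lists were drawn up with earlier results of these data known. Of 18 interferon-stimulated genes, 9 fell, 0 rose and 9 did not pass, and the median log2 fold change was -3.14. All 18 had a negative value, as did 5539 of all 11400 genes tested. Mx1, an antiviral GTPase, had 4.70, 2.46 and 9.91 CPM in oxLDL samples 1, 2 and 3, against 98.5, 138 and 159 CPM in the untreated samples, and fell (-4.67 ± 0.40 on the log2 scale, edgeR adjusted p = 0.0286). Cmpk2 (-4.07 ± 0.60), Mx2 (-3.70 ± 0.49), Oasl1 (-3.28 ± 0.40) and Oas3 (-2.55 ± 0.38) fell as well. Rsad2, which encodes viperin, had 31.8, 28.9 and 836 CPM in oxLDL samples 1, 2 and 3, against 315, 533 and 1845 CPM in the untreated samples, and did not pass (-2.91 ± 0.68). It was the only gene of the list whose groups overlapped, through oxLDL sample 3. Of all genes tested, 10.2% had the oxLDL samples below all untreated samples. Medians of the list in pairs 1, 2 and 3 were -3.26, -4.38 and -1.71.

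The ISG15 system, the substrate of USP18, had 1 of 4 genes past the threshold, beside 5.89% of all genes tested. Uba7, the activating enzyme, fell (-1.72 ± 0.29, edgeR adjusted p = 0.0483), while Isg15 itself (-3.35 ± 0.68) and the ligase Herc6 (-2.08 ± 0.49) did not pass. In all 4 genes the oxLDL samples lay below all untreated samples, as in 10.2% of all genes tested. Isg15 measured 4.56, 6.11 and 84.7 CPM in oxLDL samples 1, 2 and 3, against 94.2, 116 and 249 CPM in the untreated samples.

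**Figure D4:**
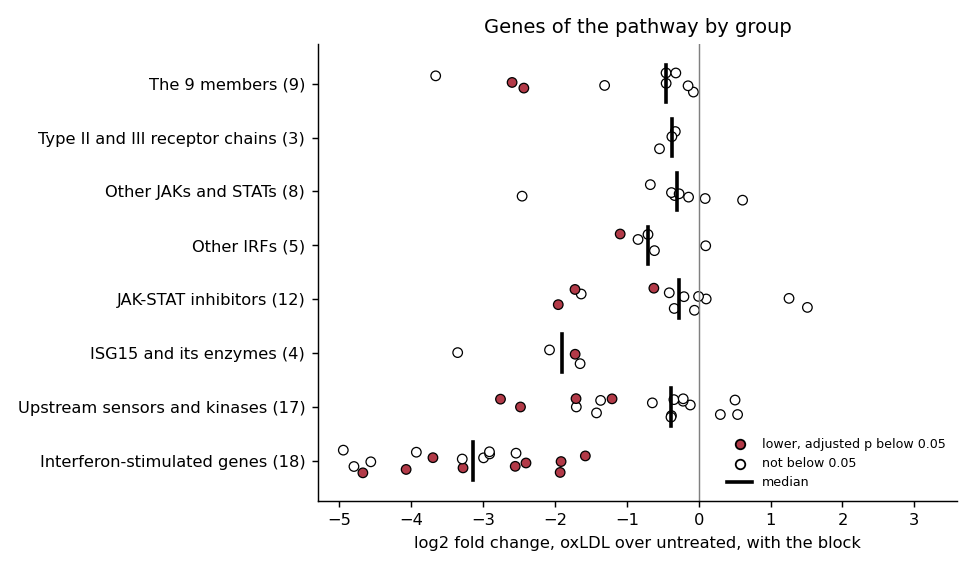
Log2 fold change of oxLDL over untreated, with the block, for the 9 genes and for the tested genes of 7 other groups of the pathway (number in brackets), with bars at the medians and red points for genes that fell. The interferon-stimulated genes have the lowest median, -3.14, and no gene of any group rose in this fit.

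Of all genes tested, 3.98% fell with the block. Of 17 sensors, adaptors and kinases upstream of IRF3 and IRF7, 4 fell, 0 rose and 13 did not pass, with a median of -0.39. These were Tlr9, an endosomal DNA receptor (-2.76 ± 0.28), Ddx58, the RNA sensor RIG-I (-2.48 ± 0.32), the kinase gene Ikbke (-1.71 ± 0.27) and Tlr3, a receptor of double-stranded RNA (-1.21 ± 0.21). Tbk1, the kinase that activates IRF3, measured 105, 107 and 127 CPM in oxLDL samples 1, 2 and 3, against 129, 128 and 134 CPM in the untreated samples, with a log2 fold change that did not pass (-0.22 ± 0.11, edgeR adjusted p = 0.263). Tlr7, an endosomal RNA receptor, did not pass (-1.42 ± 0.33).

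The counts that follow stand beside the 3.98% of all genes tested that fell. Of 5 other tested interferon regulatory factors, 1 fell, Irf5 (-1.09 ± 0.16, edgeR adjusted p = 0.0369), which acts below Toll-like receptors. Irf8, a lineage factor of macrophages, did not pass, at -0.71 ± 0.13 (edgeR adjusted p = 0.0547). None of the 8 other JAK and STAT genes passed, with a median of -0.30. Of 12 inhibitors of JAK-STAT signalling, 3 fell, 0 rose and 9 did not pass, with a median of -0.27. They were Socs3, which blocks JAK kinases at cytokine receptors (-1.95 ± 0.22), the phosphatase gene Ptpn6, which encodes SHP-1 (-1.72 ± 0.16), and Pias1 (-0.62 ± 0.10). The groups of Socs3, Ptpn6, Pias1 and Irf5 overlapped. Without the block no gene passed in edgeR, and the edgeR adjusted p of Socs3 was 0.601. Ptpn1, another phosphatase gene, did not pass (-0.41 ± 0.16).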

How the data were processed

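RNA of 6 samples, 3 oxLDL and 3 untreated, was measured, with groups and numbers from the sample titles. The authors deposited expected counts per gene, made with RSEM 1.2.15 and Bowtie2 2.1.0 per the submitters' processing notes, which name the human build hg19 for these mouse samples, so gene coordinates of the counting are not used here. The authors also deposited a normalised signal, CPM scaled with TMM factors per the file name, whose values were whole reads times a constant in 100% of cases (tolerance 0.005). Expected counts, 10.4% to 11.1% of them not whole per sample, were rounded. The annotation and the strand setting are not given in the sources used here.

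Genes were kept with filterByExpr (minimum count 10, minimum total 15) and tested in edgeR 4.0.16 (R 4.3.3) with robust quasi-likelihood fits, TMM factors of 0.942 to 1.06 and the number as a block. Each SE is the fold change divided by the square root of F. DESeq2 1.42.0, limma 3.58.1 and edgeR on the recovered reads (672 genes called) were alternatives, and code was tested on simulated data. The numbers were taken as pairs because the comparison matches samples by number. Deviations from group means correlated at r = 0.68, 0.47 and 0.71 between same-numbered samples, each above the limit of 0.1. Untreated sample 2 also correlated with oxLDL sample 1 at 0.66, and untreated sample 1 with oxLDL sample 2 at 0.25. This check therefore cannot tell pair 1 from pair 2. Nothing in the labels shows that samples of a group are separate cultures or mice, so the spread that p-values rest on may be partly technical.

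The 9 genes, the lists and the blocked fit as the leading fit were chosen with earlier results of these data known. Genes named besides the 9 are, per list, up to 5 that passed with the largest change, the highest-level gene that did not pass, and the 3 profiles nearest to Stat2, Irf7 and Usp18. One gene that this rule picks is not reported here. Ifngr1, Ifngr2, Tbk1, Isg15, Ifnb1, Fcgr1, Cd68, Itgam and Emr1 were added after their values were seen, and genes shown by sequence alone were picked for a motif match. Counting errors cover the number of reads only. The promoter motif was shortened by 1 letter after a first search.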

Additional observations from a re-analysis of the deposited data

How the results depend on the processing

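In edgeR all 3 counts ended with no replicate block (0 genes of all tested, 0 of the 9 and 0 of the other pathway genes). Leaving out a pair or a single library gave 0 to 3446 genes of all tested, 0 to 6 of the 9 and 0 to 47 of the other pathway genes. The high ends came from leaving out pair 3, while leaving out pair 1 or pair 2 gave 0 each time. Without the block, leaving out oxLDL sample 3 gave 31 genes and 8 other pathway genes, and leaving out untreated sample 3 gave 737 genes and 8 other pathway genes, with 1 of the 9 each (Irf9 and then Stat2). DESeq2 with the replicate block called 1853 genes, 5 of the 9 and 40 other pathway genes. DESeq2 without the block called 872 genes, 3 of the 9 (Stat2, Irf9 and Usp18) and 28 other pathway genes. Limma-voom called 4 of the 9 and 29 others, and limma on deposited log2(CPM + 1) called 4 and 28. RLE size factors, library size alone, no low-count filter and recovered reads each called 2 of the 9, Stat2 and Usp18. Library size alone moved the median of all genes by 0.10 on the log2 scale and gave 369 lower and 243 higher calls, against 454 and 218. The cause of these differences was not tested.

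Of 162 alternative fold changes of the 9 genes, 159 kept their direction and 3 turned, all of Jak1: 0.0301 with library size alone, 0.0384 without the block and without oxLDL sample 2, and 0.176 without the block and without untreated sample 3. Stat2 ran from -2.87 to -1.97 and Usp18 from -3.36 to -1.94. Of 522 values of the 29 other genes that the naming rule picks, 0 turned, 153 lost their call and 37 gained one. DESeq2 without the block and the recovered reads were added after seeing the data. Among the 9, the lowest counts were those of Usp18, with 183 and 199 expected counts in oxLDL samples 1 and 2, and of Irf7, with 211 in oxLDL sample 2.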
